A study of Mus musculus with 16 samples.

Results

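The genes described here build and equip the acid compartment of the lysosome: the cathepsins, which are its proteases, and the subunits of the vacuolar ATPase (V-ATPase), the pump that acidifies it. They were chosen by symbol, as every gene named Cts plus a single letter, every gene whose symbol begins with Atp6v0, Atp6v1 or Atp6ap, and the lysosomal genes Lamp1, Lamp2, Lgmn and Acp5. This gave 50 of the 55573 genes in the count table: 18 cathepsins, 9 V0 subunits, 13 V1 subunits, 3 accessory subunits, the 4 genes named last, and 3 further loci (the pseudogenes Atp6v0c-ps1 and Atp6v0c-ps2, and Atp6v1fnb). The V-ATPase is a rotary motor in which the cytosolic V1 part hydrolyses ATP and the membrane-bound V0 part moves protons into the lumen. Most cathepsins are made as inactive precursors that mature and work at acid pH. In obese fat, macrophages gather around dying adipocytes and digest their lipid and protein in lysosomes, and several of these genes are known to be high in macrophages and in osteoclasts, the bone-resorbing relatives of macrophages.

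RNA was sequenced from whole eWAT, the epididymal fat depot, of 16 male mice in 4 groups of 4: AAV8-LRG1-FL at week 7 of age, AAV8-eGFP at week 7, AAV8-LRG1-FL at week 10 and AAV8-eGFP at week 10. Every mouse was C57BLKS/J-db/db, lacking a working leptin receptor and therefore obese and diabetic, and no lean group was compared. LRG1, a secreted leucine-rich glycoprotein, here with a FLAG tag, or eGFP as the control protein was expressed from an AAV8 vector with the CB7 promoter, which is active in many cell types. AAV8 is known to reach liver as well as fat, so the source of LRG1 was not limited to the tissue sequenced. Cages rather than single mice were assigned to a vector, and since the cage of each mouse is not given, cage and vector cannot be told apart. The comparisons ask whether the lysosomal genes of eWAT differed between LRG1 and eGFP mice at each age, and between the ages within each vector.

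The libraries held 45376227 to 67539937 counts. Levels are given as CPM, counts scaled to a common library total after adjustment for composition (TMM). The label check was Lrg1 itself, at 478, 302, 316 and 288 CPM in LRG1 mice and 86.2, 108.5, 110.2 and 106.7 CPM in eGFP mice of week 7, and at 506, 624, 428 and 286.5 CPM in LRG1 mice and 99.6, 115, 106 and 105 CPM in eGFP mice of week 10 (log2 fold changes 1.75, SE 0.20, adjusted p = 1.58e-05, and 2.12, SE 0.20, adjusted p = 1.17e-04). Reads of the mouse gene and of the vector cannot be told apart in these counts. Adipocyte markers were high in all libraries (5 genes, summed level 7344 to 18310 CPM) and epididymis markers were nearly absent (6 genes, at most 1.61 CPM in sum, with Defb20 at 0 throughout). Among the eGFP mice of week 10, replicates 1 and 3 stood apart from replicates 2 and 4 in 37 of the 40 members that could be tested, against 20 of 40 in the LRG1 mice and 4 of 40 in the eGFP mice of week 7 and 11 of 40 in the LRG1 mice of week 10. The week 10 values of the members described in detail were therefore also computed without these 2 mice. The share of all genes with such a split was not computed. Mitochondrial ribosomal RNA took 27.1 to 30.4% of counts in LRG1 mice and 24.1 to 25.8% in eGFP mice at week 7, and a fit without mitochondrial genes again called 8 members lower and 2 higher at that week. Over all genes, 2173 of 20769 were lower and 1571 higher in that fit.

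Of the 50 members, 40 passed the filter on low counts and were tested. Of the 10 others, 7 had no count in any library: Ctsj, Ctsm, Ctsq and Ctsr, which are placental cathepsins of rodents, Atp6v1g3, Atp6ap1l and Atp6v0c-ps1. Atp6v1b1, the B subunit of kidney and inner ear, Atp6v1e2, the testis form of subunit E, and Atp6v1fnb had a few counts each, the highest being 0.319 CPM for Atp6v1fnb. Levels of different genes were compared per kilobase of the gene length given in the count table (RPKM), which need not be the length of the transcript made. The order depends on these lengths, which were 1358 bases for Ctss, 2351 for Ctsd, 6051 for Ctsb and 6489 for Ctsl. By CPM without length, Ctss was at rank 5, Ctsd at 3, Ctsb at 1 and Ctsl at 2. Over all 16 libraries Ctss came first at 559.5 RPKM, before Ctsd at 535, Ctsb at 465, Lamp1 at 301.5, Lgmn at 248, Ctsz at 224 and Ctsl at 205. These stood far above the pump, whose most abundant V0 and V1 subunits were Atp6v0d2 at 73.7 RPKM, Atp6v0d1 at 43.0, Atp6v0a1 at 40.5 and Atp6v1a at 38.8. The level of the V0 subunit Atp6v0c (2.52 RPKM) is uncertain, as described below, so its place is not known. The order differed by group. Ctss lies on chromosome 3 (95526786 to 95556403, plus strand) next to Ctsk (95499256 to 95509362, plus strand), and Atp6v0d2 on chromosome 4 (19876841 to 19922605, minus strand; GRCm38). At week 7, Ctss averaged 215.5 RPKM in LRG1 mice and 905 RPKM in eGFP mice, while Ctsd averaged 537.5 RPKM in LRG1 mice and 557 RPKM in eGFP mice. By RPKM, Ctss was therefore below Ctsd, Ctsb (348 RPKM) and Lamp1 (278 RPKM) in the LRG1 mice and above all other members in the eGFP mice.

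Part of the lysosomal gene set is known to carry the CLEAR element, the site of the transcription factor TFEB and its relatives, whose core is the E-box CACGTG with a T before it and an A after it. Promoter windows of 300 bases (RefSeq, GRCm38.p6, 250 bases before to 50 after the annotated start) were found for 37 of the 50 members, and the core, which reads the same on both strands, occurred in 5 of the 37 (13.5%) and in 304 of 27025 genes overall (1.12%). No window was matched for Atp6ap1l, Atp6v0a2, Atp6v0c-ps1, Atp6v0c-ps2, Atp6v0d2, Atp6v1b2, Atp6v1c1, Atp6v1g1, Atp6v1h, Ctsb, Ctse, Ctsh and Ctsw. The 5 windows with the core are printed below in capitals at the core, followed by that of Ctss, the first member by RPKM, which has neither the core nor the E-box. They show that the core sat at different distances in the members that carry it: it began 13 bases before the start in Ctsa, with a repeat that began 4 bases after it, 99 bases before in Ctsd, 4 before in Atp6v0d1, 132 before in Atp6v1a and 2 after in Atp6v0e.

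Ctsa promoter, chr2:164833523-164833822, plus strand: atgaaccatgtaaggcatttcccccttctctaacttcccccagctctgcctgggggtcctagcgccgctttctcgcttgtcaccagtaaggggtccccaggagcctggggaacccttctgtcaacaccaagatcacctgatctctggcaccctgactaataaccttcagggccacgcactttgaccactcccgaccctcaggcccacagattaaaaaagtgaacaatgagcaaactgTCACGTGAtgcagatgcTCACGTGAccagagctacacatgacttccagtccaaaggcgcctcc
Ctsd promoter, chr7:142387778-142388077, minus strand: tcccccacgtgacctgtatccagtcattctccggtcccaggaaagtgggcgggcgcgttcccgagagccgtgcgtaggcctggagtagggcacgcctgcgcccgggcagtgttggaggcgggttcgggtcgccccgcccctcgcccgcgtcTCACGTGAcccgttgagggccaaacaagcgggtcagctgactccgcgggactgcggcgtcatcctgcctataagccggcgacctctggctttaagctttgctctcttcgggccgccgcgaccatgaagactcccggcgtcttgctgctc
Atp6v0d1 promoter, chr8:105566015-105566314, minus strand: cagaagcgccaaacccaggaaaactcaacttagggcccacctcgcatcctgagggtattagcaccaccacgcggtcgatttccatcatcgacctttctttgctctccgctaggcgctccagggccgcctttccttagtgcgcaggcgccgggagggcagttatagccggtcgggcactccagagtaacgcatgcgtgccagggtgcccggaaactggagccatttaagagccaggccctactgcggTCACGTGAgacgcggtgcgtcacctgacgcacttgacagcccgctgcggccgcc
Atp6v0e promoter, chr17:26676146-26676445, plus strand: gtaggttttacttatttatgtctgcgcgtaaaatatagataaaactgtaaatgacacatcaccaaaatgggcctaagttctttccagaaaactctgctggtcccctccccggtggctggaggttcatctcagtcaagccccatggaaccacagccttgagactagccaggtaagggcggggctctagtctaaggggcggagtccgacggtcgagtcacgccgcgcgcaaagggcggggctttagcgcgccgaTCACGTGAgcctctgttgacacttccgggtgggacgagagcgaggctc
Atp6v1a promoter, chr16:44139210-44139509, minus strand: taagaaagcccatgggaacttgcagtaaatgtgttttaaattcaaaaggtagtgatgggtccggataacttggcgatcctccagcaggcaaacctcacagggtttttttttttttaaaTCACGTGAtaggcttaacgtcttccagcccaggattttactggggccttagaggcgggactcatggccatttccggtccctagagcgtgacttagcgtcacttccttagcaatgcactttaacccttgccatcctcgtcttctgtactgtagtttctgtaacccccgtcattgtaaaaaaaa
Ctss promoter, chr3:95526536-95526835, plus strand: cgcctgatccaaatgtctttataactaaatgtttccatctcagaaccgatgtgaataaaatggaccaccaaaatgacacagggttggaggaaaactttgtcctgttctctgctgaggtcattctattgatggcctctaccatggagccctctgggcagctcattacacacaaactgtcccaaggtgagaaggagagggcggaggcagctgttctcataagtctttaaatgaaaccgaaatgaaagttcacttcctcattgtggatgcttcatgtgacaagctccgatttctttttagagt

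The plain E-box was found in 10 of the 37 members (27%) and in 2187 of all genes (8.09%). It added Lamp1, where it occurred 4 times, as well as Lgmn, Ctsl, Ctsf and Atp6v0b.

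At week 7, more of the lysosomal genes were lower than higher in LRG1 mice, and 6 of the 8 lower genes were proteases. Of 40 tested members, 8 were lower, 2 were higher and 30 did not pass an adjusted p of 0.01, where 10.7% of all genes tested were lower and 7.37% higher. The median log2 fold change was -0.29 over the members and 0.01 over all genes. By class, 5 of 14 cathepsins were lower and 1 higher, 2 of 9 V0 subunits were lower, and none of 10 V1 or 2 accessory subunits passed. Of the V1 subunits 4 reached an unadjusted p below 0.05, a share not computed over all genes. DESeq2 and limma-voom, also on all 16 libraries, called none of them. Without eGFP replicates 1 and 3 of week 10, edgeR called V1 subunits lower at week 7. These were Atp6v1b2, Atp6v1a, Atp6v1g1 and Atp6v1c1 (adjusted p = 3.77e-05, 7.32e-05, 1.98e-04 and 0.00745), and none was higher. Over all genes, 3087 of 21872 were then lower and 2858 higher. DESeq2 called 1 of the 2 accessory subunits lower. All 4 LRG1 mice lay below all 4 eGFP mice in 20 members and above them in 4, against 19.4% and 18.6% of all genes. Since whole tissue was sequenced, fewer cells that express a gene and less of its RNA per cell cannot be told apart in any value here.

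Ctss, the cysteine protease of antigen-presenting cells that trims the MHC class II invariant chain, showed the largest difference of the members called at week 7. It was at 282, 348, 255 and 285 CPM in LRG1 mice, against 1347, 1340, 1086 and 1143 CPM in eGFP mice. The groups were far apart and neither held a stray mouse. The log2 fold change was -2.07 (SE 0.30, adjusted p = 1.28e-04), a 4.20-fold lower level. Lgmn, the asparaginyl endopeptidase that matures other lysosomal proteases, was at 341, 394, 279.5 and 322 CPM in LRG1 mice, against 720, 984, 729 and 688 CPM in eGFP mice (log2 fold change -1.22, SE 0.24, adjusted p = 0.00149). Replicate 2 of the eGFP mice was the highest, and the groups did not overlap.

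Ctsc, the dipeptidyl peptidase that activates the granule proteases of leukocytes, had the smallest adjusted p of all members. It was at 131, 166, 139 and 153 CPM in LRG1 mice, against 396, 399, 306 and 364 CPM in eGFP mice (log2 fold change -1.31, SE 0.13, adjusted p = 4.11e-06). Ctsh, an aminopeptidase, was at 92.5, 96.5, 90.1 and 94.4 CPM in LRG1 mice, against 173, 191, 146 and 160 CPM in eGFP mice (log2 fold change -0.84, SE 0.16, adjusted p = 0.00102). The LRG1 mice were closely bunched in both genes and lay below every eGFP mouse. Ctsa, the serine carboxypeptidase that also shields lysosomal beta-galactosidase and neuraminidase from degradation, was at 148, 171, 144.5 and 163 CPM in LRG1 mice, against 276, 335, 264 and 235 CPM in eGFP mice (log2 fold change -0.82, SE 0.20, adjusted p = 0.00529). It is the only member called at either week, among those with a promoter window, that carries the CLEAR core. Ctsw, a cysteine protease of T and natural killer cells, was at the low levels of 1.00, 1.47, 0.634 and 1.72 CPM in LRG1 mice, against 3.81, 2.996, 2.10 and 3.50 CPM in eGFP mice (log2 fold change -1.36, SE 0.30, adjusted p = 0.00292), and the groups did not overlap.

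Other abundant proteases had lower levels in every LRG1 mouse at week 7 without passing the threshold in the fit of all 16 libraries. Ctsb, a cysteine protease that cuts within and at the end of proteins, was at 2021, 2252, 2010 and 2135 CPM in LRG1 mice, against 3219, 3905, 3031 and 2769 CPM in eGFP mice (log2 fold change -0.62, SE 0.22, adjusted p = 0.0428). Ctsz, a carboxypeptidase, was at 232, 280, 220.1 and 258 CPM in LRG1 mice, against 389, 463, 403.5 and 354 CPM in eGFP mice (log2 fold change -0.70, SE 0.20, adjusted p = 0.0159). Ctsk, the collagen-degrading protease of osteoclasts, was at 65.5, 86.8, 75.5 and 68.4 CPM in LRG1 mice, against 161, 195, 160 and 106 CPM in eGFP mice (log2 fold change -1.07, SE 0.35, adjusted p = 0.0293). The groups did not overlap in any of the 3 genes. An edgeR fit of the 8 mice of week 7 alone called all 3 lower. Its adjusted p was 2.42e-04 for Ctsb, 6.56e-05 for Ctsz and 9.74e-05 for Ctsk. Over all genes, that fit called 3146 of 19719 lower and 2581 higher.

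The aspartic protease gene Ctsd and the endopeptidase gene Ctsl, both among the most abundant members, showed no such gap at week 7. Ctsd was at 1126, 1410, 1175 and 1343 CPM in LRG1 mice, against 1271, 1582, 1257 and 1132 CPM in eGFP mice (log2 fold change -0.05, SE 0.26, adjusted p = 0.899). Ctsl was at 1161, 1388, 1039 and 1205 CPM in LRG1 mice, against 1230, 1773, 1347 and 1068 CPM in eGFP mice (log2 fold change -0.18, SE 0.27, adjusted p = 0.655). In both genes the 2 groups overlapped. The ratio of Ctss to Ctsd per kilobase was accordingly 0.368 to 0.434 in LRG1 mice and 1.47 to 1.83 in eGFP mice. That of Ctsk to Ctsl was 0.242 to 0.312 in LRG1 mice and 0.426 to 0.562 in eGFP mice. Lamp1 and Lamp2, the main glycoproteins of the lysosomal membrane, had log2 fold changes of -0.14 (SE 0.16, adjusted p = 0.550) and -0.08 (SE 0.11, adjusted p = 0.597), with 708.5 to 790.5 CPM in LRG1 mice and 764 to 918 CPM in eGFP mice for Lamp1, and 415 to 460 CPM in LRG1 mice and 431 to 493 CPM in eGFP mice for Lamp2.

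**Figure D1:**
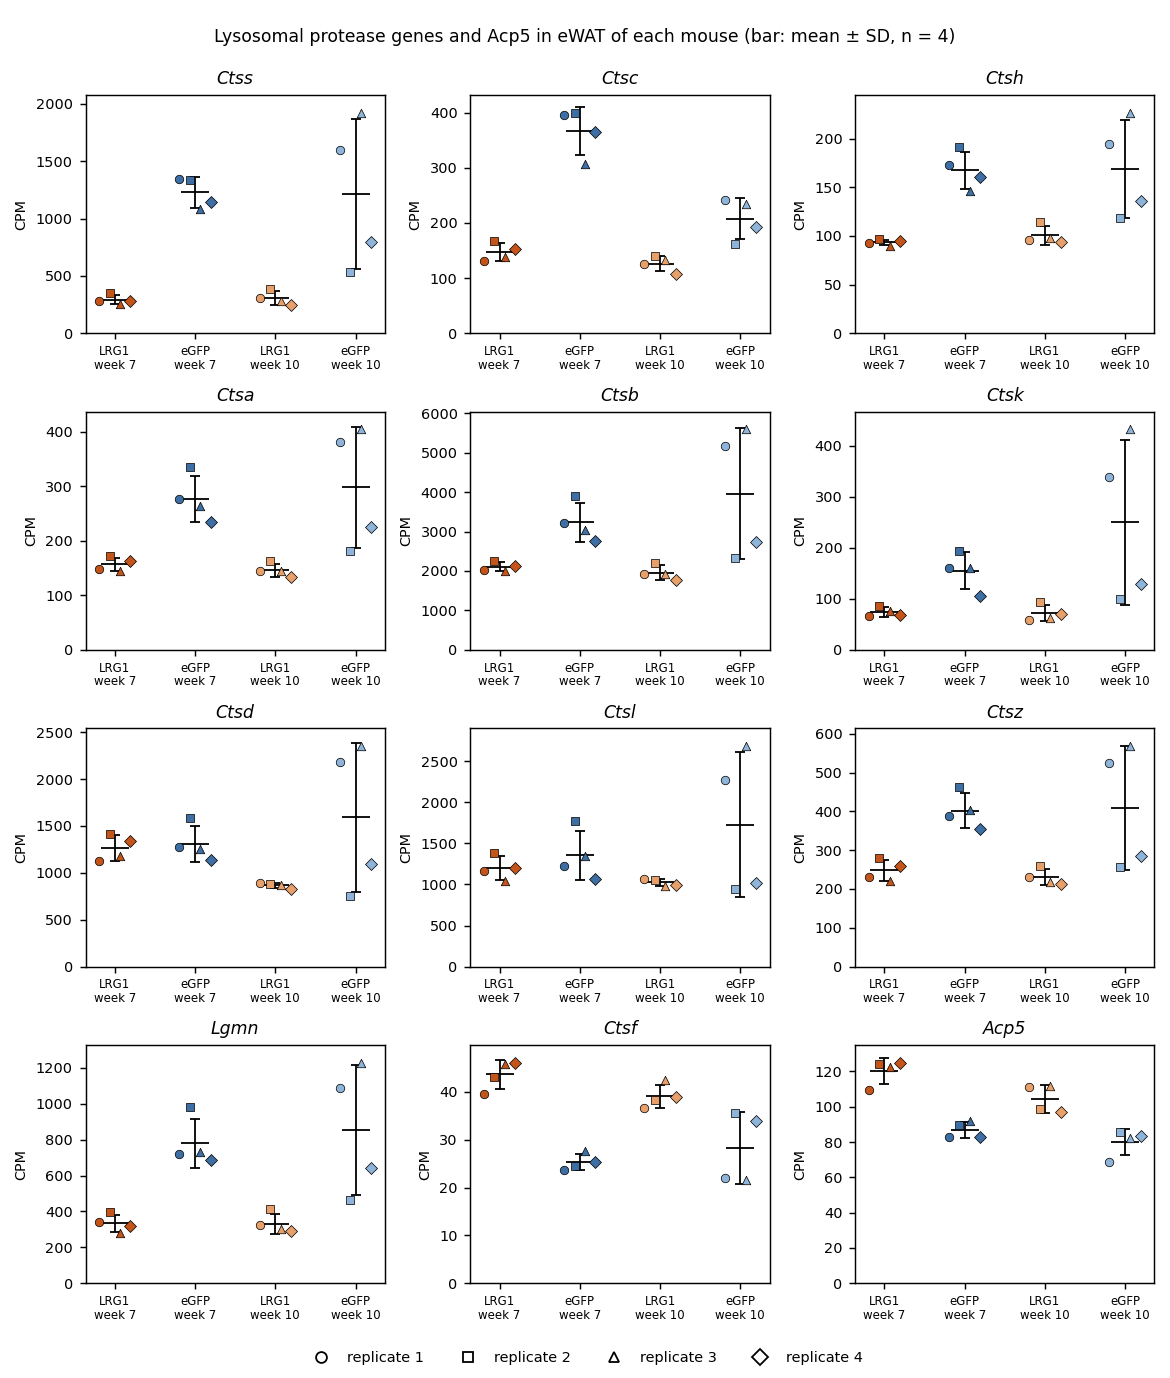
Levels of 12 lysosomal protease and phosphatase genes in eWAT of each mouse, in CPM (y axes start at 0), with LRG1 mice left of eGFP mice within each week. Symbols are single mice by replicate number, and bars give the mean ± SD (n = 4). Ctss lay at 255 to 348 CPM in LRG1 mice and 1086 to 1347 CPM in eGFP mice of week 7, while replicates 1 and 3 of the eGFP mice of week 10 stood above the other 2 in all panels but Ctsf and Acp5.

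The 2 members that rose at week 7 were Ctsf and Acp5. Ctsf, a cysteine cathepsin found in many tissues, was at 39.6, 43.2, 45.9 and 46.1 CPM in LRG1 mice, against 23.7, 24.6, 27.6 and 25.4 CPM in eGFP mice (log2 fold change 0.79, SE 0.14, adjusted p = 6.02e-04). Acp5, the tartrate-resistant acid phosphatase used to stain osteoclasts, was at 109.5, 124.1, 122.5 and 124.9 CPM in LRG1 mice, against 82.6, 89.6, 92.0 and 82.9 CPM in eGFP mice (log2 fold change 0.47, SE 0.08, adjusted p = 5.37e-04). Every LRG1 mouse lay above every eGFP mouse in both genes. Acp5 was thus higher in the mice in which Atp6v0d2, which osteoclasts also use, was lower.

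Among the pump genes, 2 V0 subunits were called lower at week 7, Atp6v0d2 and Atp6v0c, of which Atp6v0d2 is an isoform of the d subunit, the stalk that joins V0 to V1. Atp6v0d2, the isoform of macrophages and osteoclasts, was at 78.6, 102.9, 65.6 and 84.8 CPM in LRG1 mice, against 263, 335, 276.5 and 190.4 CPM in eGFP mice (log2 fold change -1.68, SE 0.35, adjusted p = 0.00226). Atp6v0d1, the isoform present in most cells, was at 69.1, 77.0, 76.0 and 74.1 CPM in LRG1 mice, against 75.7, 85.9, 74.7 and 73.7 CPM in eGFP mice (log2 fold change -0.06, SE 0.09, adjusted p = 0.631). The paralogs thus behaved unlike each other: the ratio of Atp6v0d2 to Atp6v0d1 per kilobase was 0.569 to 0.882 in LRG1 mice and 1.71 to 2.58 in eGFP mice. The promoter of Atp6v0d1 carries the CLEAR core.

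Atp6v0c, the proteolipid c subunit of the proton-conducting ring, was at 7.11, 8.64, 7.42 and 7.27 CPM in LRG1 mice, against 11.2, 12.8, 9.43 and 10.0 CPM in eGFP mice (log2 fold change -0.51, SE 0.13, adjusted p = 0.00701). Its level is uncertain, since reads of near-identical copies may have been dropped or split: per kilobase it averaged 2.52 RPKM over all libraries and its pseudogene Atp6v0c-ps2 6.56 RPKM. Atp6ap2, an accessory subunit also known as the prorenin receptor, was at 59.7, 66.7, 60.8 and 59.7 CPM in LRG1 mice, against 97.2, 106.5, 90.2 and 83.6 CPM in eGFP mice. The groups did not overlap, and the adjusted p was just above the threshold (log2 fold change -0.61, SE 0.17, adjusted p = 0.0114). The other V0 and V1 subunits tested and Atp6ap1 had log2 fold changes between -0.66 (Atp6v1b2, the B subunit of most cells, SE 0.21, adjusted p = 0.0266) and 0.94 (Atp6v0a4, the a subunit of kidney, SE 0.30, adjusted p = 0.0245).

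**Figure D2:**
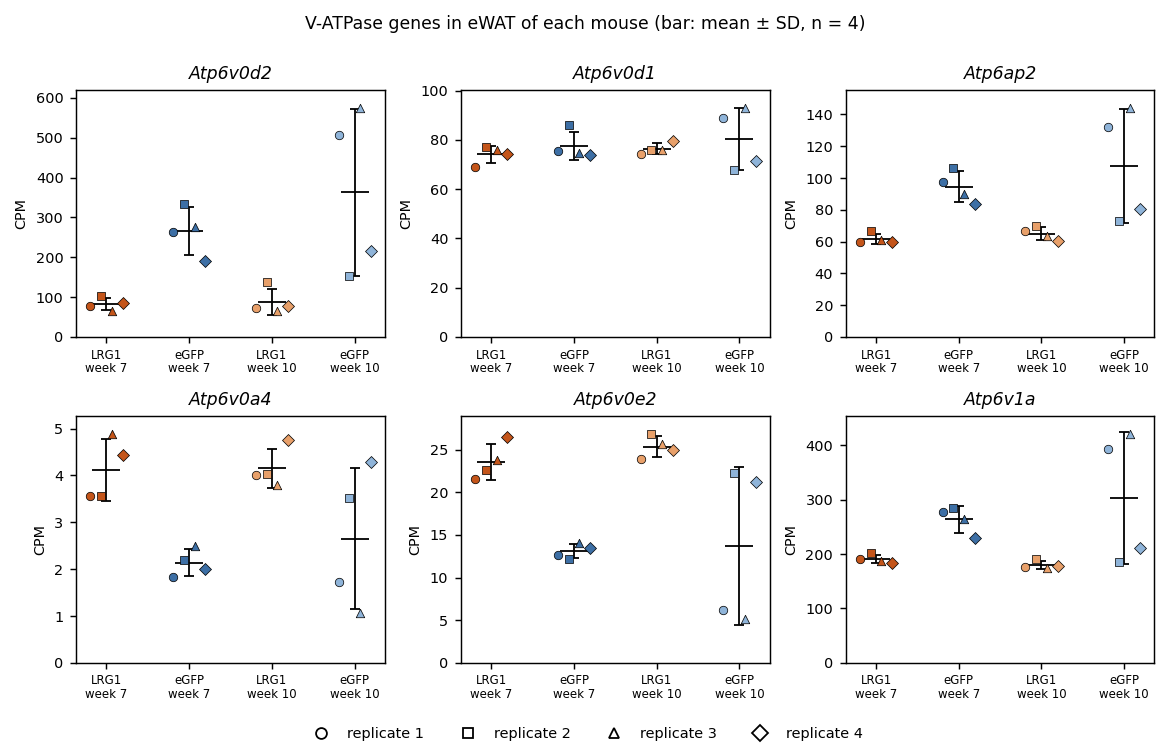
Levels of 6 V-ATPase genes in eWAT of each mouse, in CPM (y axes start at 0), with LRG1 mice left of eGFP mice within each week. Symbols are single mice by replicate number and bars give the mean ± SD (n = 4). Atp6v0d2 lay at 65.6 to 102.9 CPM in LRG1 mice and 190.4 to 335 CPM in eGFP mice of week 7, whereas its paralog Atp6v0d1 lay at 69.1 to 77.0 CPM in LRG1 mice and 73.7 to 85.9 CPM in eGFP mice. Atp6v0a4, Atp6v0e2 and Atp6v1a were chosen after their values were seen.

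The counts of week 7 depended on the fit. Without eGFP replicate 1, LRG1 replicate 1 or LRG1 replicate 3 of that week, 5 members were lower instead of 8, with 2 higher each time. Over all genes these fits called 2310, 2719 and 2239, against 3755 with all mice. Ctss, Lgmn, Ctsc, Ctsh, Ctsf and Acp5 kept their calls in all 16 fits that left out a single mouse, Atp6v0d2 lost its call without LRG1 replicate 3 (adjusted p = 0.0106), and Ctsw lost its call without eGFP replicate 1 (adjusted p = 0.0115) or LRG1 replicate 1 (adjusted p = 0.0113). Ctsa lost its call without eGFP replicate 1 or 2 or any single LRG1 mouse of that week (adjusted p up to 0.021), and Atp6v0c without eGFP replicate 1, 2 or 4 or LRG1 replicate 1, 3 or 4 (adjusted p up to 0.0288). A fit of the 8 mice of week 7 alone called 19 members lower and 4 higher, where 3146 of 19719 genes were lower and 2581 higher. Scaling by library size alone called 18 members lower and 1 higher, with the median of all genes at -0.15. That scaling called 3636 of 20822 genes lower and 341 higher. Without the 2 high eGFP mice of week 10, which enter the shared spread, 18 members were lower and 4 higher. Over all genes, 3087 of 21872 were then lower and 2858 higher.

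At week 10 the same 6 genes as at week 7 were lower in LRG1 mice (Ctss, Lgmn, Ctsc, Ctsh, Ctsa and Atp6v0d2), joined by Ctsk, Ctsb, Ctsg and Atp6ap2, and Acp5 was again higher. Of 40 tested members 10 were lower, 1 was higher and 29 did not pass, where 5.24% of all genes tested were lower and 3.66% higher. The median log2 fold change was -0.53 over the members and -0.00 over all genes. The lower genes were 7 of 14 cathepsins, 1 of 9 V0 subunits, none of 10 V1 subunits, 1 of 2 accessory subunits and Lgmn. Of the V1 subunits 9 reached an unadjusted p below 0.05, and DESeq2 called 5 lower and limma-voom none. The share of all genes at that unadjusted p was not computed. All 4 LRG1 mice lay below all 4 eGFP mice in 12 members and above them in 3, against 10.1% and 9.96% of all genes. In most of these genes the 4 LRG1 mice were tightly grouped and the eGFP mice were not.

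Ctss was at 305, 386, 281 and 246 CPM in LRG1 mice, against 1598, 533, 1921 and 799 CPM in eGFP mice (log2 fold change -1.99, SE 0.30, adjusted p = 0.00121). Lgmn was at 326, 413, 299.8 and 288 CPM in LRG1 mice, against 1090, 463, 1229 and 640.1 CPM in eGFP mice (log2 fold change -1.37, SE 0.24, adjusted p = 0.00227). In both genes replicates 1 and 3 of the eGFP mice were far above replicates 2 and 4, and even the lowest eGFP mouse lay above every LRG1 mouse. Atp6v0d2 was at 73.2, 136.8, 65.5 and 78.7 CPM in LRG1 mice, against 506, 153.5, 575 and 216 CPM in eGFP mice (log2 fold change -2.03, SE 0.36, adjusted p = 0.00216). Atp6v0d1 was at 74.2, 75.8, 76.0 and 79.7 CPM in LRG1 mice, against 88.9, 67.9, 93.0 and 71.5 CPM in eGFP mice (log2 fold change -0.07, SE 0.09, adjusted p = 0.614). The ratio of Atp6v0d2 to Atp6v0d1 per kilobase was 0.569 to 1.19 in LRG1 mice and 1.49 to 4.08 in eGFP mice, so the ranges were apart at both weeks.

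Ctsc was at 125, 139, 132 and 108 CPM in LRG1 mice, against 242, 162, 234 and 192 CPM in eGFP mice (log2 fold change -0.72, SE 0.13, adjusted p = 0.00243). Ctsh was at 95.6, 115, 97.8 and 94.2 CPM in LRG1 mice, against 195, 118, 227 and 136 CPM in eGFP mice (log2 fold change -0.75, SE 0.16, adjusted p = 0.00474). Ctsa was at 144, 162, 145 and 134 CPM in LRG1 mice, against 381, 181, 404 and 225 CPM in eGFP mice (log2 fold change -1.02, SE 0.20, adjusted p = 0.0032). The groups did not overlap in these genes, although eGFP replicate 2 lay just above the highest LRG1 mouse for Ctsh. Ctsk was at 59.5, 94.2, 62.2 and 70.1 CPM in LRG1 mice, against 340, 100.3, 432 and 129 CPM in eGFP mice (log2 fold change -1.81, SE 0.36, adjusted p = 0.00349). Ctsb was at 1930, 2209, 1925 and 1773 CPM in LRG1 mice, against 5169, 2328, 5586 and 2734 CPM in eGFP mice (log2 fold change -1.01, SE 0.22, adjusted p = 0.00565). Both were again lower in every LRG1 mouse than in any eGFP mouse, as they had been at week 7.

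Ctsg, a serine protease of neutrophil and mast cell granules, was the only called member whose groups overlapped at week 10. It was at 0.559, 0.531, 0.163 and 0.144 CPM in LRG1 mice, against 4.16, 0.554, 6.30 and 3.51 CPM in eGFP mice (log2 fold change -3.37, SE 0.67, adjusted p = 0.00351). Replicate 2 of the eGFP mice was at the level of the LRG1 mice and the other 3 were high. Mast cell markers showed the same order: their summed level (6 genes) was 29.2 to 32.5 CPM in LRG1 mice and 394, 48.0, 440.5 and 104.5 CPM in eGFP mice, and 6 of 6 were called lower. Of 6 tested neutrophil markers 3 were called lower, with a summed level of 34.4 to 82.9 CPM in LRG1 mice and 22.3 to 347 CPM in eGFP mice, and the part of either cell type in the Ctsg result was not tested.

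Atp6ap2 was at 66.5, 69.6, 63.6 and 60.4 CPM in LRG1 mice, against 131.9, 73.2, 144 and 80.7 CPM in eGFP mice (log2 fold change -0.72, SE 0.17, adjusted p = 0.00744). Acp5 was at 111, 98.5, 112 and 97.0 CPM in LRG1 mice, against 68.8, 85.6, 82.2 and 83.5 CPM in eGFP mice (log2 fold change 0.39, SE 0.08, adjusted p = 0.00447). Acp5 was the least variable of the genes called at week 10 among the eGFP mice, whose highest value was 1.25 times the lowest. The genes called at week 7 alone kept their signs without passing: Ctsf was at 36.7, 38.4, 42.4 and 38.9 CPM in LRG1 mice and 22.1, 35.6, 21.5 and 33.98 CPM in eGFP mice (log2 fold change 0.47, SE 0.14, adjusted p = 0.0233), Atp6v0c had a log2 fold change of -0.40 (SE 0.13, adjusted p = 0.037), and Ctsw had one of -0.08 (SE 0.29, adjusted p = 0.881) with overlapping groups.

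Ctsz, Ctsd, Ctsl, Lamp1 and Lamp2 had negative fold changes at week 10 and did not pass. Ctsz was at 232, 260, 219 and 212 CPM in LRG1 mice, against 524, 256, 568 and 286 CPM in eGFP mice (log2 fold change -0.82, SE 0.20, adjusted p = 0.0103). Ctsd was at 889, 882, 869 and 830 CPM in LRG1 mice, against 2184, 748, 2351 and 1089 CPM in eGFP mice (log2 fold change -0.88, SE 0.26, adjusted p = 0.0242). Ctsl was at 1072, 1060, 985.5 and 999 CPM in LRG1 mice, against 2269, 940, 2686 and 1017 CPM in eGFP mice (log2 fold change -0.75, SE 0.27, adjusted p = 0.0558). In each of the 3 genes eGFP replicate 2 lay inside or below the range of the LRG1 mice. Lamp1 and Lamp2 were at 635 to 735 CPM and 434.5 to 475 CPM in LRG1 mice, and at 677 to 1304 CPM and 442 to 648 CPM in eGFP mice (log2 fold changes -0.53, SE 0.16, adjusted p = 0.0252, and -0.29, SE 0.11, adjusted p = 0.0555).

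**Figure D3:**
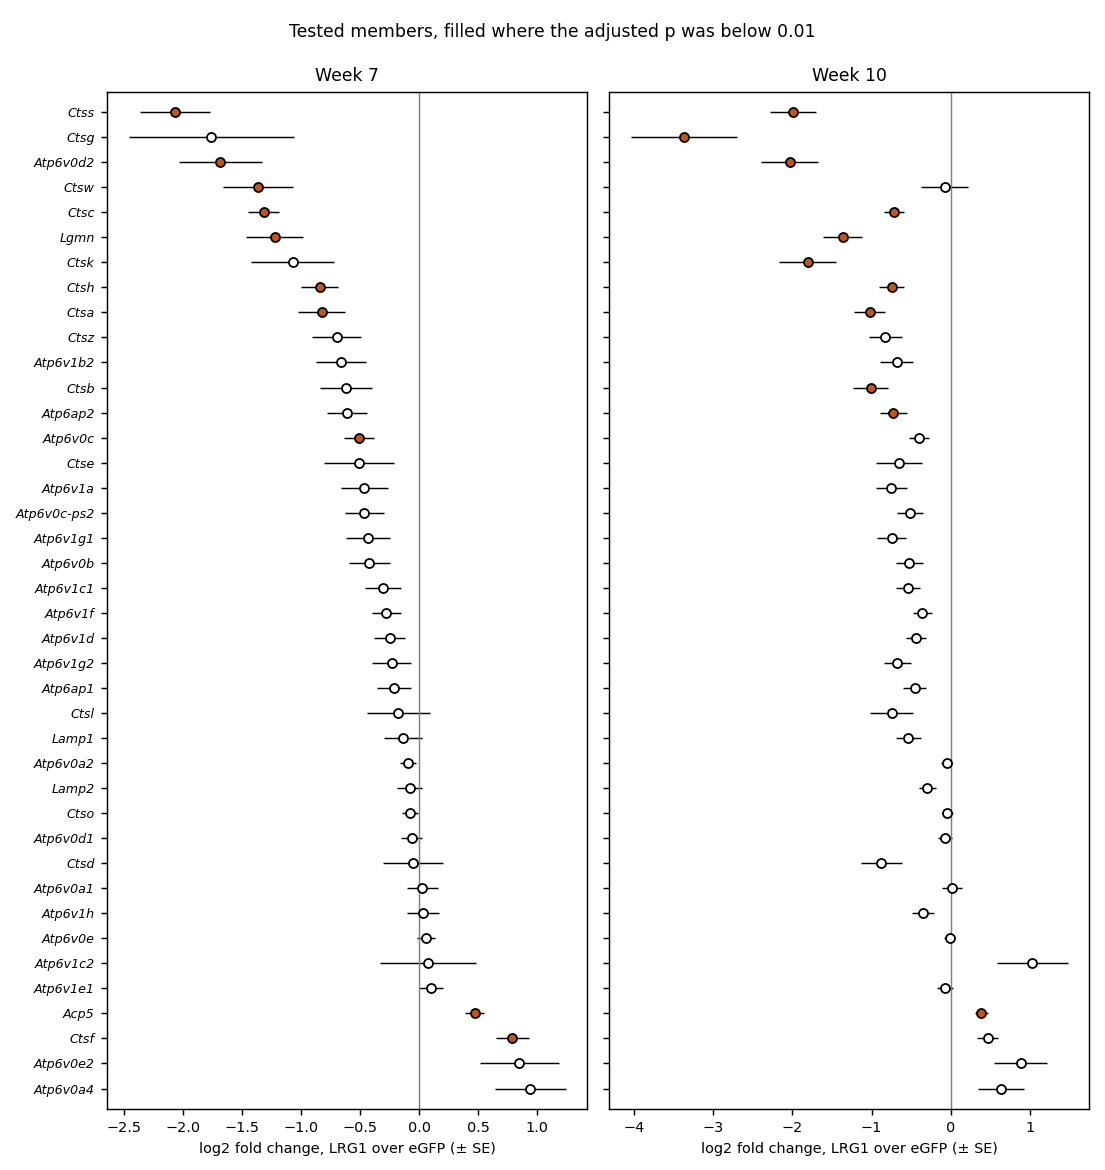
Log2 fold changes of the 40 tested members, LRG1 over eGFP, with their SE (x axis), at week 7 (left) and week 10 (right), ordered by the value at week 7. Filled points passed an adjusted p of 0.01: 8 lower and 2 higher at week 7, 10 lower and 1 higher at week 10. The x axes of the panels differ in range.

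The counts of week 10 rested on few mice. Without the 2 high eGFP mice, replicates 1 and 3, a choice made after seeing the data, 1 member was called lower and none higher. That member was Ctss (log2 fold change -1.13, SE 0.17, adjusted p = 0.00559). Over all genes, 74 of 21872 were lower and 87 higher in this fit. Lgmn then had a log2 fold change of -0.73 (SE 0.17, adjusted p = 0.0261), Atp6v0d2 of -1.06 (SE 0.26, adjusted p = 0.0288), Ctsa of -0.47 (SE 0.12, adjusted p = 0.0408), Ctsk of -0.68 (SE 0.20, adjusted p = 0.0673) and Ctsb of -0.37 (SE 0.12, adjusted p = 0.097), each closer to 0 than with all mice. The other members called with all mice were also closer to 0, with Ctsc at -0.49 (SE 0.12, adjusted p = 0.0361), Ctsh at -0.34 (SE 0.10, adjusted p = 0.0724), Atp6ap2 at -0.24 (SE 0.09, adjusted p = 0.151), Ctsg at -2.54 (SE 0.69, adjusted p = 0.0489) and Acp5 at 0.31 (SE 0.08, adjusted p = 0.0447). Of those not called, Ctsd was then at -0.08 (SE 0.14, adjusted p = 0.816), Ctsz at -0.23 (SE 0.11, adjusted p = 0.291), Lamp1 at -0.10 (SE 0.09, adjusted p = 0.619), Lamp2 at -0.05 (SE 0.08, adjusted p = 0.781), Ctsf at 0.17 (SE 0.08, adjusted p = 0.299), Atp6v0c at -0.19 (SE 0.14, adjusted p = 0.511), Ctsw at -0.31 (SE 0.34, adjusted p = 0.688), Ctsl at 0.07 (SE 0.15, adjusted p = 0.849) and Atp6v0d1 at 0.13 (SE 0.07, adjusted p = 0.361).

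Leaving out single mice of week 10, 4 members were called without eGFP replicate 1 and 4 without eGFP replicate 3, 26 without eGFP replicate 2 and 23 without eGFP replicate 4. There were 5 without LRG1 replicate 1, 2 without LRG1 replicate 3 and 1 without LRG1 replicate 4. All genes called moved as well, from 1854 with all mice to 489, 530, 3647 and 2795 in these eGFP fits. They were 730, 416 and 284 in these LRG1 fits. Ctss alone of the members called at week 10 kept its call in all 16 fits that left out a mouse. Ctsc lost its call without LRG1 replicate 4 (adjusted p = 0.0125), and Lgmn and Atp6v0d2 without LRG1 replicate 3 or 4 (adjusted p up to 0.0123 and 0.0116). Ctsa, Ctsb, Ctsh, Ctsk and Acp5 lost theirs without eGFP replicate 1 or 3 or LRG1 replicate 1, 3 or 4 (adjusted p up to 0.0228), Ctsg without the same mice except LRG1 replicate 1 (up to 0.0166), and Atp6ap2 in 13 of the 16 fits (up to 0.0305). A fit of the 8 mice of week 10 alone called no member, with adjusted p between 0.0327 (Ctss) and 0.975, where 33 had reached an unadjusted p below 0.05 in the fit of all mice, and DESeq2 on all libraries called 18 lower and 2 higher. Over all genes, the fit of 8 mice called 10 of 19128 lower and 2 higher. DESeq2 called 1949 of 38145 genes lower and 1573 higher.

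Whether the difference between LRG1 and eGFP changed from week 7 to week 10 was tested directly, and no member was called (edgeR), where 0.0192% of all genes tested were lower and 0.307% higher. At an unadjusted p below 0.05 there were 3 members: Ctsc (change of the log2 fold change 0.60, SE 0.18, adjusted p = 0.175), Ctsw (1.29, SE 0.42, adjusted p = 0.215) and Ctsd (-0.82, SE 0.37, adjusted p = 0.48). DESeq2 and limma-voom called no member either. Without eGFP replicates 1 and 3 of week 10, 3 members were called: Ctsc (0.82, SE 0.16, adjusted p = 0.00754), Ctsf (-0.62, SE 0.11, adjusted p = 0.00386) and Atp6v0e2, an isoform of the small e subunit (-0.62, SE 0.11, adjusted p = 0.00488). Over all genes, 182 of 21872 were then lower and 284 higher.

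Within the eGFP mice, Ctsc was the only member called between the ages. It averaged 208 ± 37.1 CPM at week 10 and 366 ± 43.15 CPM at week 7 (SD, n = 4 each; log2 fold change -0.82, SE 0.13, adjusted p = 0.00156), where 1.51% of all genes tested were lower and 0.629% higher. Every mouse of week 10 lay below every mouse of week 7. Without replicates 1 and 3 of week 10, 6 members were lower (Ctsc, Ctss, Ctsz, Atp6v0b, Atp6v1b2 and Atp6v1a) and 3 higher (Atp6v0a4, Atp6v0e2 and Ctsf), of 41 tested. Over all genes, 1146 of 21872 were then lower and 1063 higher. Within the LRG1 mice no member was called by edgeR or by DESeq2, where 0.00480% of all genes were lower and 0.00480% higher. In the edgeR fit 2 members reached an unadjusted p below 0.05 there, Acp5 (log2 fold change -0.20, SE 0.08, adjusted p = 0.51) and Atp6v1g2, a G subunit known from neurons (-0.47, SE 0.17, adjusted p = 0.447).

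The eGFP mice of week 10 also varied among themselves in a patterned way. Of 40 tested members, 32 were higher in replicates 1 and 3 than in replicates 2 and 4, and 5 were lower. The share of all genes with this split was not computed, so it cannot be called particular to the members. Genes called at week 10 went from 1854 with all mice to 161 without replicates 1 and 3. The summed level of all members in the eGFP mice of week 10 was 18610, 8619, 20620 and 10380 CPM, against 11150 to 14990 CPM in the eGFP mice of week 7. The median member had its highest eGFP mouse 1.87 times above its lowest at week 10, against 1.19 times in the LRG1 mice of that week. The 5 that ran the other way included Atp6v0e2, at 6.16, 22.2, 5.15 and 21.2 CPM in these mice and 23.9, 26.9, 25.6 and 25.0 CPM in the LRG1 mice, and Atp6v0a4, at 1.72, 3.53, 1.07 and 4.28 CPM in these mice and 4.001, 4.04, 3.81 and 4.76 CPM in the LRG1 mice. Both were named for this pattern after their values were seen, and neither was called by edgeR at week 7 or week 10 with all mice. Without eGFP replicates 1 and 3 of week 10 both were called higher at week 7 (Atp6v0e2 0.85, SE 0.07, adjusted p = 3.77e-07, and Atp6v0a4 0.94, SE 0.14, adjusted p = 7.88e-05), and neither was called at week 10. Since both genes were named because these 2 mice deviate in them, a narrower shared spread was fixed in advance. With all mice the SE at week 7 was 0.34 for Atp6v0e2 and 0.30 for Atp6v0a4. Fitting the 8 mice of week 7 alone also called both, and DESeq2 on all mice called Atp6v0a4, higher at week 7.

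Markers of macrophages were lower in sum in LRG1 mice at both weeks. The summed level of 12 macrophage markers was 1764 to 2020 CPM in LRG1 mice and 3832 to 4789 CPM in eGFP mice at week 7, with 10 called lower and none higher. At week 10 it was 1711 to 2273 CPM in LRG1 mice and 6176, 2581, 6464 and 3435 CPM in eGFP mice, with 9 called lower and none higher. Aif1 (log2 fold change -2.42, SE 0.17, adjusted p = 1.07e-07), C1qa, a complement subunit made by macrophages (-1.31, SE 0.12, adjusted p = 1.96e-06), and Fcgr1 (-1.89, SE 0.22, adjusted p = 2.43e-05) led the list at week 7, and none of the 12 was at 0. The summed level of the cathepsins was 5240 to 6292 CPM in LRG1 mice and 7412 to 10260 CPM in eGFP mice at week 7, and 4554 to 5401 CPM in LRG1 mice and 12980, 5458, 14490 and 6704 CPM in eGFP mice at week 10. That of the pump genes was 1546 to 1625 CPM in LRG1 mice and 1733 to 2240 CPM in eGFP mice at week 7, and 1436 to 1574 CPM in LRG1 mice and 2682, 1491, 2855 and 1680 CPM in eGFP mice at week 10. The part of the macrophage content in these results was not tested.

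**Figure D4:**
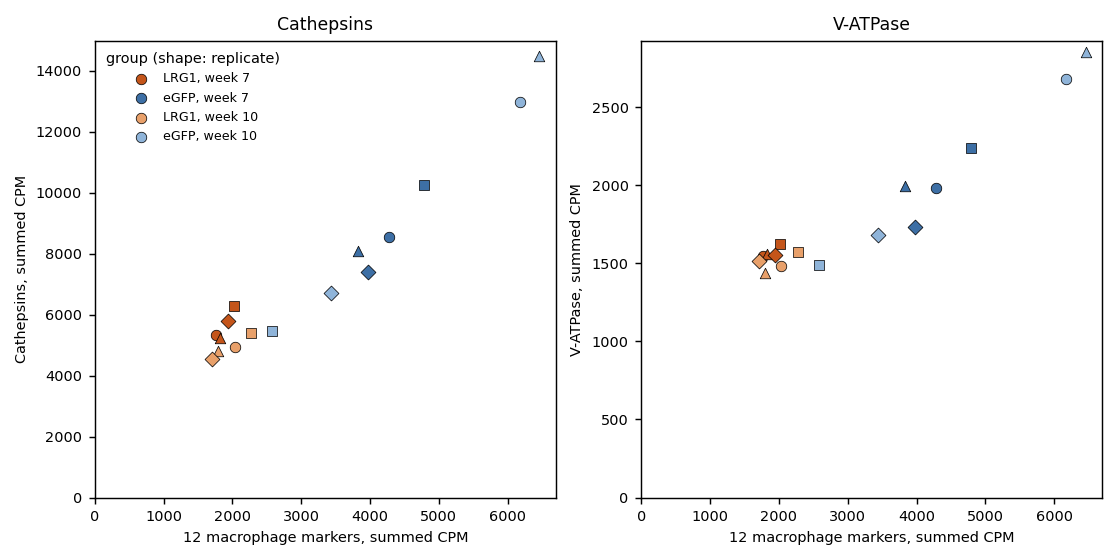
Summed level of the cathepsins (left) and of the V-ATPase subunits and accessory proteins (right) against that of 12 macrophage markers, all in CPM with axes from 0. Each point is a mouse, with shape by replicate number. LRG1 mice lay at 1711 to 2273 CPM of macrophage markers, and eGFP mice at 2581 to 6464 CPM, with replicates 1 and 3 of week 10 highest on both axes.

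Other cell type markers gave the following values. Of 9 markers of lipid-associated macrophages, 2 were lower and 1 higher at week 7, and 6 were lower at week 10, among them Trem2 (log2 fold change -1.48 at week 7 and -1.92 at week 10) and Mmp12 (-3.83 at week 10). Their summed level, which includes Lpl and Cd36, genes that adipocytes also express, was 13190 to 15190 CPM in LRG1 mice and 11940 to 13750 CPM in eGFP mice at week 7, and 12690 to 14210 CPM in LRG1 mice and 11820 to 24660 CPM in eGFP mice at week 10. The 8 markers of T and cytotoxic cells, which Ctsw accompanies, had 7 lower at week 7 (4.45 to 9.72 CPM in LRG1 mice and 31.9 to 63.3 CPM in eGFP mice) and 3 lower at week 10 (7.50 to 14.5 CPM in LRG1 mice and 14.8 to 20.5 CPM in eGFP mice). Of 4 tested osteoclast markers, genes that share the fusion and bone resorption program of Ctsk, Acp5 and Atp6v0d2, 3 were lower at week 7 (Tnfrsf11a at -1.30, Dcstamp at -2.06 and Ocstamp at -2.04 on the log2 scale) and 2 at week 10. Their summed level was 22.6 to 33.7 CPM in LRG1 mice and 53.7 to 83.3 CPM in eGFP mice at week 7, and 23.03 to 34.4 CPM in LRG1 mice and 32.8 to 92.4 CPM in eGFP mice at week 10. Of 5 adipocyte markers, 1 was higher at each week, Cidec at week 7 (log2 fold change 0.78) and Lep at week 10 (1.15), with summed levels of 14290 to 17840 CPM in LRG1 mice and 10710 to 11380 CPM in eGFP mice at week 7, and 16970 to 18310 CPM in LRG1 mice and 7344 to 15380 CPM in eGFP mice at week 10. Endothelial markers had 3 of 4 higher at week 7 (381 to 519 CPM in LRG1 mice and 219 to 285.5 CPM in eGFP mice) and none called at week 10, and none of 4 mesothelial markers was called at either week. No neutrophil or mast cell marker was called at week 7. None of these lists held a gene at 0 in every library. The part of these cell types in the member results was not tested.

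Other lysosomal genes were described from lists outside the symbol rule. Of 33 other lysosomal hydrolases, 12 were lower and 4 higher at week 7 (median log2 fold change -0.33), and 14 were lower and none higher at week 10 (-0.47). Pla2g15, a lysosomal phospholipase (-0.86, SE 0.13, adjusted p = 2.16e-04), and Asah1, acid ceramidase (-0.77, SE 0.14, adjusted p = 7.3e-04), were lower at week 7, whereas Aga, which removes asparagine-linked sugars, was higher (0.47, SE 0.08, adjusted p = 4.06e-04). At week 10, Gla, alpha-galactosidase, was at -1.80 (SE 0.33, adjusted p = 0.00261). Of 23 tested lysosomal membrane proteins and activators, 6 were lower and 2 higher at week 7, and 7 lower and 3 higher at week 10 (medians -0.21 and -0.30). Laptm5, of blood cells, was lower at both weeks (-1.47, SE 0.27, and -1.58, SE 0.27), whereas its paralog Laptm4b was higher at week 7 (0.98, SE 0.15, adjusted p = 2.26e-04).

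Among 11 V-ATPase genes that the symbol rule leaves out, Tcirg1, the a subunit of osteoclasts and macrophages, was lower at both weeks (log2 fold change at week 7 -1.47, SE 0.30, adjusted p = 0.00192; at week 10 -1.85, SE 0.30, adjusted p = 0.00171). With Ccdc115, an assembly factor (-0.55, SE 0.12, adjusted p = 0.00291), 2 of the 11 were lower at week 7, and Oxr1 was higher (0.23, SE 0.06, adjusted p = 0.00464), with medians of -0.07 at week 7 and -0.27 at week 10. The paralogs of Tcirg1 among the members are Atp6v0a1, the a subunit of neurons and many other cells, Atp6v0a2 and Atp6v0a4. Atp6v0a1 had log2 fold changes of 0.03 in the younger mice (SE 0.13, adjusted p = 0.897) and 0.02 in the older (SE 0.13, adjusted p = 0.940). The isoform known from macrophages and osteoclasts was thus lower for both the a and the d subunit. The edgeR fit of all 16 libraries called none of the other isoforms. Those of the a subunit did not behave alike. Atp6v0a2 had log2 fold changes of -0.09 and -0.05, whereas those of Atp6v0a4 were 0.94 and 0.64. Every LRG1 mouse of week 7 lay above every eGFP mouse for Atp6v0a4, and some other fits called it higher at that week, as given above. Of 9 tested inhibitors of cathepsins, 3 were lower at week 7 and 4 at week 10, with none higher (medians -0.85 and -0.83). They included Serpina3g (-3.55, SE 0.29, adjusted p = 5.44e-07 in the younger and -1.66, SE 0.27, adjusted p = 0.00171 in the older mice), an inhibitor of cysteine proteases in leukocytes, and Cst7 (-2.40, SE 0.33, adjusted p = 8.38e-05 and -1.64, SE 0.32, adjusted p = 0.00351), cystatin F, which acts on Ctsc.

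Of 20 genes of lysosomal sorting and regulation, 4 were lower and 2 higher at week 7, and 5 lower and 1 higher at week 10 (medians -0.19 and -0.22). Tfeb, the transcription factor of the CLEAR element, was at -0.75 (SE 0.15, adjusted p = 0.00133) at week 7, and its relative Tfec, which is found mainly in myeloid cells, at -2.52 (SE 0.49, adjusted p = 0.00334) at week 10. Sort1, a sorting receptor, was at 0.61 (SE 0.07, adjusted p = 2.42e-05) at week 7, and Mtor, the kinase that restrains Tfeb, at 0.62 (SE 0.12, adjusted p = 0.00134) in the younger mice and 0.54 (SE 0.12, adjusted p = 0.0059) in the older. The CLEAR core occurred in 1 of the 8 lower members with a promoter window, in 0 of the 2 higher ones and in 4 of the 19 called at neither week. The members that carry the core and were not called were Ctsd, Atp6v0d1, Atp6v0e and Atp6v1a, whose log2 fold changes were -0.05, -0.06, 0.06 and -0.47 at week 7 and -0.88, -0.07, -0.01 and -0.75 at week 10, where the adjusted p was 0.0242 for Ctsd and 0.0142 for Atp6v1a.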

How the data were processed

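Counts per gene were analysed for 16 eWAT libraries, 4 per group. According to the labels and the study's methods, the authors trimmed reads with Cutadapt, aligned them to mm10 (GRCm38) with STAR and counted them with featureCounts, and deposited raw counts with no normalization. Versions and the strand and multi-mapping settings are not given in the sources used here. Symbols were matched for 55394 of the 55573 Ensembl identifiers.

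Here, edgeR 4.0.16 in R 4.3.3 (quasi-likelihood F test, TMM scaling, filterByExpr) was fitted once to all 16 libraries with a coefficient per group, which kept 20822 genes. The threshold was an adjusted p of 0.01 (Benjamini-Hochberg over all of these genes). The common coefficient of biological variation was 0.203. Each SE was derived from the fold change and its F statistic. The p-values measure the spread between mice. Counts of members at an unadjusted p below 0.05 have no share over all genes beside them, since it was not computed. Counting error is small at 45376227 counts or more, except for genes near 1 CPM.

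The members and gene lists were chosen with earlier results of these data known. Named with values were the members called at week 7 or 10 at 1 CPM or more (up to 14), the V-ATPase paralogs of these, and Ctsb, Ctsd, Ctsl, Ctss, Ctsk, Ctsz, Lamp1, Lamp2, Lgmn and Acp5, and up to 3 genes of each other list by adjusted p. Other genes named were chosen after their values were seen. Alternatives were DESeq2 1.42.0, limma-voom (limma 3.58.1), other scalings, filters and thresholds, fits of 8 libraries, a replicate block, leaving out each mouse, and leaving out eGFP replicates 1 and 3 of week 10, which was added after seeing the data. The fits were tested on simulated data, drawn with the same spread of a gene in every group. This does not test them on the wider spread of the eGFP mice of week 10. Promoters were taken from RefSeq (GRCm38.p6) and gene positions from GENCODE M21.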

Additional observations from a re-analysis of the deposited data

Results flagged for a closer look

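In 5 of 80 groups of 4 mice, over the 20 genes described with their values, a mouse lay far from the other 3 by Dixon's test at the 95% level, where chance flags about 1 in 20. Acp5 was at 109.5 CPM in LRG1 replicate 1 of week 7 and 122.5 to 124.9 CPM in the other 3, and Atp6ap2 was at 66.68 CPM in LRG1 replicate 2 of week 7 and 59.73 to 60.75 CPM in the others. Atp6v0d1 was at 85.87 CPM in eGFP replicate 2 of week 7 and 73.71 to 75.65 CPM in the others, and Lgmn was at 984.1 CPM in the same mouse and 687.9 to 729.4 CPM in the others. Lamp2 was at 474.6 CPM in LRG1 replicate 3 of week 10 and 434.5 to 439.1 CPM in the others. The 2 high eGFP mice of week 10 are not among these values, since each has the other beside it.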

How the results depend on the processing

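The number of members called at week 7 (10 as reported) was 23 in a fit of the 8 libraries compared, 19 with library size alone, 17 at an adjusted p below 0.05 and 22 without eGFP replicates 1 and 3 of week 10, and it ran from 7 to 14 when a single mouse was left out. Over all genes (3755 as reported) these fits called 5727, 3977, 6555 and 5945, and 2239 to 4412 with a single mouse left out. At week 10 (11 as reported) the number of members was 20 with DESeq2, 0 in a fit of the 8 libraries compared, 26 at an adjusted p below 0.05 and 1 without eGFP replicates 1 and 3, and it ran from 1 to 26 when a single mouse was left out. Over all genes (1854 as reported) these fits called 3522, 12, 4761 and 161, and 284 to 3647 with a single mouse left out. The change of the effect between weeks had 3 members called without eGFP replicates 1 and 3 and none otherwise. Over all genes, 466 were called without these replicates and 68 with all mice. Between weeks in eGFP mice (1 as reported) the count was 2 with DESeq2, 0 with 8 libraries, 2 at an adjusted p below 0.05, 9 without eGFP replicates 1 and 3, and 1 to 2 when a single mouse was left out. Over all genes (446 as reported) it was 1054 with DESeq2, 109 with 8 libraries and 1220 at an adjusted p below 0.05. It was 1146 lower and 1063 higher without eGFP replicates 1 and 3, and 180 to 479 when a single mouse was left out. The causes were not tested.

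Directions held for the 20 genes described with their values in all fits except these, none of them called. Ctsd at week 7 (-0.05) was at 0.0086 with upper quartile scaling and ran from -0.12 to 0.0504 when a single mouse was left out. At week 10, without eGFP replicates 1 and 3, Atp6v0d1 was at 0.133 and Ctsl at 0.0733, and with single mice left out Atp6v0d1 ran from -0.14 to 0.0058 and Ctsw from -0.21 to 0.0925. Acp5 lost its call with library size alone (adjusted p = 0.0185 at week 7 and 0.0118 at week 10). By CPM without length, Ctsb was at rank 1 among the members instead of rank 3, and the E-box occurred in 10 promoters where the CLEAR core occurred in 5.

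The labels share replicate numbers across groups, but deviations of mice with the same number did not go together (24 pairs, correlations -0.2 to 0.142, median -0.0126), and no pairing was assumed. With the replicate block, 8 members were called at week 7 and 7 at week 10. Over all genes, that fit called 3248 and 1174, against 3755 and 1854 without the block. Depth limited Ctsg and Ctsw, near 1 CPM, and the 10 members that were not tested.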
